A study of Mus musculus with 6 samples.

Results

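The probes described here were the antisense (AFAS, artificial antisense sequence) probes that were brighter than the sense probe of the same gene in all 4 mammary tumors of GRS/A mice. A probe was included when its processed scanner signal was at least 100 and above that of the sense probe with the same accession on every tumor array. This gave 124 probes of 90 genes, out of 1277 AFAS probes of 315 genes with such a sense probe and 1752 AFAS probes of 445 genes in all. The tumor signals of both strands therefore chose the probes and are given as a description, whereas the normal glands played no part in the choice. Where tumors are set against normal glands below, the rule used the tumor side, and it favours probes that are high in tumors. Of the 124 probes, 122 had sequences of their own, because Ccl4 and Cd40lg each had a probe placed on the array under 2 names.

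Total RNA of 4 mammary tumors and 2 normal mammary glands of the GRS/A strain, in which the mouse mammary tumor virus induces mammary tumors, was hybridized to a custom 1-colour Agilent array of 60-base probes after random priming. The labels name no transgene, treatment or age, and separate mice are not stated, so p-values measure only the spread between these samples, which may be technical. The titles name mammary tissue, while the extraction protocol of the labels names another organ; of the markers of mammary epithelium, sense probes of Krt14, Krt19 and Prlr were present, with summed signals of 11292 to 73333 in the tumors and 5036 to 6011 in the normal glands, and markers of brain and of adipocytes were not among the named probes. Tumors 3 and 4 shared a slide, and slide and group cannot be told apart because no slide was known here for the normal glands. In bulk tissue, fewer cells of a type and less RNA per cell cannot be told apart.

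Natural antisense transcripts are RNAs copied from the strand opposite to a gene, and many are not polyadenylated, so that random priming of total RNA can reach them where oligo-dT priming does not. Some are known to alter transcription, chromatin or RNA processing of the gene they face, as in imprinted regions and around tumor suppressor genes. An AFAS probe has the sequence of the complementary strand of an annotated exon and binds cDNA copied from such RNA, but it also binds any other labelled cDNA of enough likeness. Signals of different probes depend on the probe as well as on the RNA, and a brighter antisense probe is not a measure of more antisense RNA than sense RNA.

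Probe sequences are shown for 7 of the chosen probes, to let their base composition be read, with runs of at least 2 cytosines in capitals. All are read 5′ to 3′ as spotted on the array, and the number after each gene is the probe's serial number within the gene.
Vav1 probe 3: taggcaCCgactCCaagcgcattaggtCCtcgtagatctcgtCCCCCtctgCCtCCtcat
Notch4 probe 1: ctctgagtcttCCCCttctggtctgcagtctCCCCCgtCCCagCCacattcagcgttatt
Bcl2l2 probe 4: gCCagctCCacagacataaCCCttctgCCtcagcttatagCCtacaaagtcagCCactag
Bst1 probe 4: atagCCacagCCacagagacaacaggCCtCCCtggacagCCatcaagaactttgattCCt
Blk probe 2: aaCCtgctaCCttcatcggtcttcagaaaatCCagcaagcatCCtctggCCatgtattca
Ccnf probe 3: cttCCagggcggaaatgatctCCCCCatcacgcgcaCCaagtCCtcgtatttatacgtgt
Htr7 probe 2: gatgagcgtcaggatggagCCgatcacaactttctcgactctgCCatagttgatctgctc

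The first 6 of these held 31.7% to 40% cytosine, and the last held 26.7%. They are richer in cytosine than the set as a whole, in which 46.8% of the 124 probes held at least 30%. For 16 of the 124 probes, of 15 genes, the AFAS probe and the sense probe lay opposite each other over part of their length, so that both strands were read at the same place of the transcript. In 3 of these pairs, shown with the AFAS probe first, capitals mark the longest stretch of exact complementarity, of 58 bases in Cd2, 30 in Itgb2 and 19 in Pou5f1.
Cd2 AFAS probe 1: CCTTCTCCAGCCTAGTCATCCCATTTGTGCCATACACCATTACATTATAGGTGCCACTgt
Cd2 sense probe: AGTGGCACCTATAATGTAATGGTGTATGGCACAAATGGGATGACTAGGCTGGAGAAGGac
Itgb2 AFAS probe 1: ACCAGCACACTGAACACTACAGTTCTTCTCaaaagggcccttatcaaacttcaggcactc
Itgb2 sense probe: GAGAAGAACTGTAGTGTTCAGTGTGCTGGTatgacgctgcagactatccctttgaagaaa
Pou5f1 AFAS probe 1: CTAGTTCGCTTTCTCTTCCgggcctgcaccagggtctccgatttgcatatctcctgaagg
Pou5f1 sense probe: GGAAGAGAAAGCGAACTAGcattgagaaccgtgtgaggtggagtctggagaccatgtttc

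A probe of Gzmc and a probe of Gzmb, which encode granzymes of cytotoxic lymphocytes, shared a run of 21 bases, shown in capitals, so that their signals cannot be assigned to 1 of the genes with certainty.
Gzmc probe 0: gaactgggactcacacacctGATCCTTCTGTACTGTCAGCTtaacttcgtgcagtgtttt
Gzmb probe 1: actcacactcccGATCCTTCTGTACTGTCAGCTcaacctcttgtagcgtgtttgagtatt

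In the normal glands, which the choice did not use, 120 of the 124 AFAS probes were again above the sense probe in both samples. Among all 1262 pairs of AFAS and sense probe that could be followed into the normal glands, this held for 22.8%. Among the 225 other AFAS probes that reached 100 in all tumors it held for 76, or 33.8%, and among 37 AFAS probes above the sense probe in all tumors but under 100 in at least 1 of them it held for 31. Where no value of the pair was at 5, the floor that the authors set for signals below 5 or not distinct from background, it held for 84 of 87 of the chosen pairs against 28.7% of all such pairs. With the AFAS signal at least 2 times the sense signal, 112 of the 124 still passed in both normal glands. On single arrays, 18.4% to 26.4% of all 1262 pairs had the AFAS probe above the sense probe.

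The 4 exceptions were probes of Cd86, Ighmbp2, Edn3 and Tie1, with 1 (Cd86) below the sense probe in both normal glands, an order found in 67.7% of all pairs. Cd86 encodes a costimulatory ligand of antigen-presenting cells, and its chosen AFAS probe gave 21.6 and 5 against 106 and 49.9. Ighmbp2 is a helicase gene, and its probe 2 gave 159 and 145 in the normal glands against 120 and 287 for the sense probe, while its probe 3 gave 486 and 375. Edn3, which encodes endothelin 3, gave 183 and 149 against 160 and 169, and Tie1, a receptor tyrosine kinase gene of endothelium, gave 350 and 400 against 378 and 320. These 3 probes thus had the strands in opposite order in the 2 normal glands.

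The size of the difference between strands varied widely. The median over tumors of the AFAS signal was 1.11 to 404 times the sense signal, with a median of 10.5 times over the 124 probes. On all 4 tumor arrays, 86 probes were at least 2 times, 37 at least 10 times and 2 at least 100 times the sense probe. The sense probe was well above background in all 4 tumors for 91 of the 124, and for the others the ratio rests on a sense signal near background and has no firm size. The AFAS signals ranged from 105 to 70200 in the tumor scanner data, and 39 probes were at least 1000 in all tumors. The sense signal was under 100 in all tumors for 38 of the 124 and at least 1000 in all tumors for 3, of Il11 (2 probes) and Pura.

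The widest difference between strands was found for Cdx2, a homeobox gene of intestinal identity. Its AFAS probe 4 gave deposited signals of 29090, 56535, 16711 and 47890 in tumors 1 to 4 and 39826 and 46554 in the normal glands, against 41.1, 131, 194 and 127 and 165 and 113 for the sense probe. Inha, which encodes the alpha subunit of inhibin, gave 41243, 53248, 18916 and 47574 in the tumors and 44875 and 60250 in the normal glands, with 95.4 to 651 for the sense probe. In both genes the normal glands lay within or just above the range of the tumors. The other AFAS probes of these genes were far dimmer: 3 of 5 of Cdx2 did not meet the rule, and the 2 others of Inha gave 24.3 to 210 on the tumor scanner arrays.

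By the lowest signal among the 4 tumors, the other probes among the 5 brightest were of Il11, Pura and Bst1. The AFAS probe 0 of Il11, a cytokine of the interleukin-6 family, gave 33588, 57685, 24950 and 66455 in the tumors and 42951 and 42279 in the normal glands, while its sense probe gave 1445 to 3331 in the tumors and 2376 and 1928 in the normal glands. For Pura, a gene of a nucleic acid binding protein, the AFAS probe 3 gave 22049 to 31751 in the tumors and 24513 and 34536 in the normal glands, beside a sense signal of 3813 to 10095 and of 2169 and 1649. Bst1, which encodes a surface enzyme also known as CD157, gave 15502, 17092, 10421 and 10454 in the tumors and 11445 and 8730 in the normal glands on probe 4, with sense signals of 35.1 to 202 in the tumors and of 5, the floor, in each normal gland. In Il11 and Pura both strands were thus bright, and in Bst1 only the antisense one was.

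For the other probes among the 10 widest differences, the sense probe was well above background in 1 to 3 tumors only, so the AFAS signals are given in place of a ratio. Rasgrf1, an exchange factor for Ras, gave 6348 to 32130 in the tumors and 16219 and 15553 in the normal glands. Sim2, a transcription factor, gave 3342 to 8977 against 2288 and 1517, and Gdf9, an oocyte growth factor, 1128 to 6880 against 4140 and 3468. Cdx1, a homeobox gene like Cdx2, gave 1393 to 5084 in the tumors and 556 and 455 in the normal glands. Hrk, a cell death activator, gave 914 to 4158 and 2053 and 1098, Rag1, a recombinase of lymphocytes, 626 to 5900 and 1962 and 1210, and Cyp1a1, a cytochrome P450 of xenobiotic metabolism, 995 to 12536 and 1265 and 2307. Only in Sim2 and Cdx1 did the tumors and normal glands not overlap, and neither passed in limma on the AFAS signals (adjusted p = 0.218 and 0.181).

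The probes that stood highest over a measured sense signal in both normal glands were of Cdx2, Inha, Vav1, Blk and Notch4. Vav1, an exchange factor of blood cells, gave AFAS signals of 10909, 7231, 2913 and 8977 in the tumors and 9894 and 13486 in the normal glands, 83.3 and 160 times the sense probe in the latter. Blk, a Src-family kinase of B cells, gave 1694, 7593, 963 and 1255 in the tumors and 11137 and 16418 in the normal glands, 106 and 125 times the sense probe. Notch4, a Notch receptor of endothelium, gave 5502, 14052, 3226 and 5348 and 13706 and 17946, 132 and 148 times the sense probe. For Blk both normal glands were above every tumor, and tumor 2 was the closest to them.

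Most of the 90 genes had a single such probe (63 genes), 20 had 2 and 7 had 3. Of the 371 AFAS probes of these genes, 247 did not meet the rule, and 128 of the 241 that could be followed into the normal glands were below the sense probe in all tumors, whereas 30 were above it but under 100 in at least 1 tumor. Nfkbib, which encodes an inhibitor of NF-kappa-B, was the only gene of which every AFAS probe (3 of 3) qualified. Within the 90 genes, the brightest AFAS probe was a median of 104 times the dimmest, with signals below 5 raised to 5 and a range of 1.15 to 4680 times. By comparison, 19 pairs of AFAS probes of identical sequence differed by a median of 1.09 times and at most 1.48 times over 41 values in which both spots were at least 100 on a tumor array. These ranges describe genes chosen for a bright probe, and they set probes of different sequence side by side.

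Genes with 3 qualifying probes show this in detail. In Ccnf, the gene of cyclin F, probe 3 gave 1732, 1471, 4236 and 1941 in the tumors and 1077 and 720 in the normal glands, whereas probe 2 gave 326, 476, 234 and 197 and 944 and 676. The first was higher in every tumor than in the normal glands and the second lower, although neither passed in limma (adjusted p = 0.313 and 0.233). Cd40lg, which encodes a ligand of activated T cells, gave 522 to 1824 and 663 and 528 on 1 of its identical probes and 448 to 1676 and 703 and 527 on the other, while its probe 2 gave 312 to 914 and 1243 and 1005. Probes of 1 gene thus had different orders of tumor and normal gland.

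Ccl4, a chemokine gene, had the widest difference between tumors and normal glands among the 3 genes given here. On its probe 0, placed on the array under 2 names, 1 spot gave 289, 3879, 161 and 272 in the tumors and 7353 and 11180 in the normal glands, and the other 246, 3772, 137 and 275 and 7342 and 9429. Tumor 2 was far above the other tumors on both spots and below both normal glands. The difference was -4.27 on the log2 scale on either spot and did not pass (adjusted p = 0.196 and 0.201), while another Ccl4 probe gave 533 to 1025 in the tumors and 405 and 349 in the normal glands.

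Single tumors stood apart on a number of these probes. The AFAS signal was over 2 times that of each other tumor on 9 probes in tumor 1, 12 in tumor 2, 9 in tumor 3 and 1 in tumor 4. On 9 of the 12 probes high in tumor 2, among them the 2 spots of Ccl4 and those of Cd2, Blk, Cnr1, Rasa3 and Notch4, both normal glands also lay above the other 3 tumors. This held for 3 of 9 in tumor 1 and for 0 of 9 in tumor 3. Cnr1 probe 2, of a cannabinoid receptor gene, gave 8094 in tumor 2, 649 to 1521 in the other tumors and 7243 and 9257 in the normal glands. On the other 351 AFAS probes of at least 100 in all tumors, tumor 2 was likewise high on 33, with both normal glands above the other tumors on 21.

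The scanner software had marked some of these spots as non-uniform, that is, uneven in brightness across the spot. It marked 19 of the 496 AFAS spots of the chosen probes on the tumor arrays, and 9 of the 31 spots at which 1 tumor was over 2 times the others. In tumor 2 this was 4 of 12, among them that of Rasa3 probe 0. In tumor 3 this was 5 of 9, among them those of Lta, Edn3, Erf and Pou4f2. Lta, a cytokine gene, gave 5988 in tumor 3 against 187 to 375 in the other tumors and 165 and 169 in the normal glands. Erf, a repressor of the ETS family, gave 3064 on probe 3 against 111 to 294 and 132 and 135. Without any pair that held a marked spot, 105 of the 124 remained, and 102 of these had the AFAS probe above the sense probe in both normal glands.

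The tumors were then compared with the normal glands, on log2 deposited signals, over the whole table of each strand. For the AFAS probes, limma with Benjamini-Hochberg adjustment over 1734 probes passed 0.461% of them as higher and 0% as lower in tumors at an adjusted p under 0.05. Among the 124 chosen probes, 1 was higher and 0 were lower, beside 14 (11.3%) and 6 (4.84%) at an unadjusted p under 0.05, against 227 (13.1%) and 57 (3.29%) of all AFAS probes. Their median difference was 0.06 on the log2 scale against 0.44 over all AFAS probes, on a scale whose centre moved with the scaling: after scaling to the 75th percentile the medians were -0.34 and 0.04, and after quantile normalization -0.26 and -0.13. Every tumor was above both normal glands for 24 of the 124 probes (19.4%, against 21.8% of all AFAS probes) and below both for 10 (8.06%, against 6.98%). These shares lay near those of the whole table, and nothing is read from them because the tumor signals chose the probes.

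The probe that passed was that of Cd86, with AFAS signals of 780, 441, 673 and 803 in the tumors and 21.6 and 5 in the normal glands. The rule required at least 100 in every tumor, so a probe this low in the normal glands had to differ, and its difference of 5.98 on the log2 scale is a description. The sense probe gave 172, 224, 34.2 and 120 in the tumors and 106 and 49.9 in the normal glands and did not pass in limma (0.63 ± 0.80, SE, adjusted p = 0.636). One normal value was at the floor, so the size of the AFAS difference depends on it, and with all values below 20 raised to 20 it was 4.98. The call was lost when any array other than tumor 2 was left out. Cd86 had 5 AFAS probes, and the others did not meet the rule. As tumor scanner signals against normal glands, probe 1 gave 20.9 to 175 against 65.9 and 58.5, and probe 3 gave 79.2 to 216 against 173 and 127. Nearer the floor, probe 2 gave 20.9 to 59.5 against 5 and 5, and probe 4 gave 5.08 to 42 against 19.1 and 5.

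For the sense probes of the 90 genes, 9 were higher and 0 lower in tumors by limma, against 14.4% and 0.248% of the 404 sense probes. After scaling to the 75th percentile these calls came to 1 higher and 1 lower of the 90, and to 21 higher of the 404, and of the 9 genes only Bst1 still passed. Bcl2l2, a survival gene of the BCL2 family, gave sense signals of 1187, 786, 475 and 1814 in the tumors and 235 and 70.4 in the normal glands (2.88 ± 0.72, adjusted p = 0.0414), while its AFAS probe 4 gave 26698, 13065, 4839 and 5063 and 14401 and 22816. Zrsr1, a splicing factor gene, gave 1359, 335, 584 and 634 and 104 and 80.4 (2.81 ± 0.61, adjusted p = 0.0299), with AFAS signals of 1393 to 4848 and 4821 and 3705. Ifnar1, an interferon receptor gene, gave 329, 350, 282 and 486 and 102 and 41.9 (2.44 ± 0.52, adjusted p = 0.0299). In these 3 genes the sense signals of all tumors were above both normal glands, while the AFAS signals overlapped between groups. After 75th percentile scaling their adjusted p rose to 0.0552 (Bcl2l2), 0.0519 (Zrsr1) and 0.059 (Ifnar1). Sense probes of 4 of 10 leukocyte markers were measured. Their summed signal was 11593 to 37555 in the tumors and 7008 and 11530 in the normal glands. Csf1r and Cd4 were higher in every tumor, whereas Fcgr2b (1706 to 5588 against 2876 and 1959) and Cd86 overlapped between groups. Among the 3 of 17 markers of mammary epithelium summed above, Krt19 and Prlr were higher in every tumor. Krt14 overlapped (1752 to 5193 against 3692 and 2463). No marker was at the floor on every array. Markers of endothelium (2 of 6) summed to 1143 to 3158 and 1000 and 1521, and the stroma marker Pdgfrb (1 of 5) gave 103 to 437 and 189 and 126. The part of the cell makeup in the sense differences was not tested.

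Rfc1, a subunit of the clamp loader of DNA replication, gave sense signals of 182 to 382 in the tumors and 82.6 and 54.5 in the normal glands, and Ltbr, the lymphotoxin beta receptor gene, 359 to 903 and 143 and 111 (adjusted p = 0.0414 for each). Bst1, Cyp1a1, Htr7 and Il10 were listed at the floor in both normal glands, so no fold is given; their sense signals in the tumors were 35.1 to 202, 19 to 43.9, 15.5 to 30.8 and 15.7 to 37.4. With all values below 20 raised to 20, none of these 4 passed. The count of 9 fell to 0 without tumor 1, tumor 4 or normal gland 2 and to 1 without normal gland 1.

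The balance of the strands is the log2 ratio of AFAS to sense signal within an array. It does not depend on the factor of the array where neither signal is at the floor, but it does where one of them is. The ratios were not fitted under other scalings. By limma over 1262 pairs, 0.951% had a higher and 4.6% a lower ratio in tumors, and among the 124 chosen pairs 2 were higher and 7 lower. The median difference in this ratio was -0.49 among the 124 and -0.46 over all pairs. In tumors 83 of the 124 were lower. By the median most of all pairs were lower too, so this count is not particular to the chosen probes. The sense signal of the 124 pairs was at the floor for 0, 5, 8 and 6 of them in tumors 1 to 4 and for 18 and 36 in the normal glands. The 2 higher ratios, the direction that the rule favours, were those of Cd86 and Tnfrsf8. Tnfrsf8, which encodes the CD30 receptor, gave AFAS signals of 2469, 1183, 794 and 2489 in the tumors and 483 and 392 in the normal glands, and sense signals of 50, 95.3, 15.1 and 27.1 and 106 and 153. Its tumors lay above both normal glands on this AFAS probe and below them on the sense probe. Tnfrsf8 probe 2, just outside the rule, did not have this order. It gave 286, 842, 99.2 and 151 as tumor scanner signals and 1328 and 602 in the normal glands.

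Among the 7 lower ratios were those of Cd2, Tgfbr1 and Rasa3. Cd2 encodes an adhesion receptor of T cells, and its AFAS probe 1 shown above faces the sense probe over 58 bases. This probe gave 522, 4487, 443 and 382 in the tumors and 8043 and 9754 in the normal glands. The sense probe gave 85.5, 260, 78.2 and 171 and 156 and 70.4. The ratio of this pair was 3.81 lower on the log2 scale (-3.81 ± 0.95, adjusted p = 0.0485). Another chosen Cd2 probe had the opposite order, with tumor scanner signals of 4110, 5020, 3130 and 4000 and 1993 and 1337 in the normal glands. A further Cd2 AFAS probe also faced the sense probe but was dim, with tumor scanner signals of 28.5 to 76 and 51.2 and 37.5 in the normal glands. Tgfbr1, a receptor kinase of the TGF-beta family, gave AFAS signals of 4048, 6557, 1834 and 3987 in the tumors and 7542 and 9510 in the normal glands, and sense signals of 3914, 2309, 703 and 3154 and 489 and 284 (ratio -3.69 ± 0.83, adjusted p = 0.035). In Tgfbr1 the tumors lay below the normal glands on the AFAS probe and above them on the sense probe.

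Rasa3, a GTPase activator for Ras, passed on 2 probes that share 1 sense probe. Its probe 3 gave 2440, 3911, 371 and 551 in the tumors and 6715 and 10568 in the normal glands. On probe 0 the signals were 831, 3788, 735 and 604 and 3788 and 4688, and the tumor 2 spot was marked as non-uniform. Their sense probe gave 75, 75.6, 25.2 and 53.7 and 31.7 and 5, the last at the floor, so the size of the ratio is not given as a value of its own: the fitted difference on probe 3 was -3.90 with values below 20 raised to 20 and -3.24 without normal gland 2, and neither passed. The other lower ratios were those of Bmp8a, a growth factor gene, of Bst1 and of En2, a homeobox gene; their sense signals were 5 in each normal gland for Bmp8a and Bst1 and in 1 of them for En2. With values below 20 raised to 20 the ratios of 0 of the 124 pairs passed in limma. Omitting tumor 1, tumor 4 or normal gland 2 also brought the count of 9 to 0, and it was 1 when normal gland 1 was omitted, 3 for tumor 3 and 17 for tumor 2.

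The chosen probes differed from the other AFAS probes in base composition, which the rule did not use. Their cytosine content had a median of 28.3%, against 23.3% in the 1153 other AFAS probes with a sense probe and 25% in the 225 others that reached 100 in all tumors. At least 30% cytosine was found in 58 of 124 (46.8%), against 12.2% and 28.9% in these sets. More cytosine than guanine was found in 69.4%, against 42.2% and 54.7%. Inha probe 2 held 56.7% cytosine, Pura probe 3 53.3%, Cdx2 probe 4 45% and Rasgrf1 probe 1 43.3%, whereas Etv4 probe 4 held 11.7%.

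Read the other way, 5.83% of AFAS probes with under 20% cytosine met the rule, 4.58% of those from 20% to under 25%, 8.44% from 25% to under 30%, 24.2% from 30% to under 35% and 44% of those with 35% or more. The last group held 50 probes of 47 genes. Across all 1734 AFAS probes, the Spearman correlation of cytosine content with signal was 0.24 to 0.36 on the 6 arrays, the normal glands included, and across the 404 sense probes it was 0.07 to 0.22. These are descriptions over probes that share an array, and probes of 1 gene share its transcripts. The part of probe composition in the difference between strands was not tested.

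Where AFAS and sense probe faced each other, 10.5% of 152 AFAS probes met the rule, against 9.6% of those that did not face the sense probe. Of the 16 facing probes that met it, 16 were above the sense probe in both normal glands, and 13 held more cytosine than guanine. Of the 136 facing probes that did not meet it, 43.4% held more cytosine than guanine. Itgb2, the gene of a leukocyte integrin chain, gave AFAS signals of 925, 1405, 2553 and 869 in the tumors and 1826 and 1399 in the normal glands on its facing probe, and sense signals of 558, 531, 78.9 and 435 and 338 and 122. Pou5f1, a pluripotency factor gene, gave 797, 196, 330 and 264 and 314 and 381 on the AFAS probe and 148, 83.0, 81.4 and 53.3 and 66.1 and 85.1 on the sense probe. In both genes the AFAS values lay above the sense values of the same array on all 6 arrays.

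Other properties set the probes apart less. The reverse complement held a frame without a stop codon in 88.7%, against 89.9% of the other AFAS probes with a sense probe, and by serial number within the gene 8.29% to 13.9% of probes 0 to 4 met the rule. In the RefSeq gene table of assembly GRCm38.p6, 13 of 62 genes with a known strand (21%) overlapped a gene on the opposite strand, against 30 of 165 other genes (18.2%). Among the 13 were Mas1, which overlaps the imprinted noncoding RNA gene Airn, Zrsr1, which lies within Commd1, and Nfkbib, Sstr2 and Ighmbp2, which overlap Ccer2, Slc39a11 and Mrpl21. The share was thus close to that of the other genes, and an overlap of genes does not place a transcript at the probe.

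By function, 90 of 315 genes (28.6%) had a chosen probe, and the share in lists of gene families was 3 of 10 receptor tyrosine kinases, 3 of 18 other kinases, 12 of 36 transcription factors and nuclear receptors, 11 of 33 cytokines and growth factors, 11 of 28 receptors of cytokines and of the immune system and 4 of 12 G protein-coupled receptors. It was 3 of 16 genes of cell death, 3 of 19 of cell cycle and DNA repair, 3 of 10 proteases and inhibitors and 5 of 17 adhesion molecules and adaptors, and a gene may be in more than 1 list. The lists are incomplete, and 120 of the 315 genes were in no list. Among these were Cdx1, Cdx2, Sim2, En2, Erf, Pou5f1, Bmp8a and Hrk, so the shares are those of the lists and not of whole families. In these lists, all 17 probes of cytokines and all 15 of transcription factors were above the sense probe in both normal glands. So were 14 of 15 of immune receptors, without Cd86, and 2 of 3 of receptor tyrosine kinases, without Tie1. Probes of genes in no list were above it in 45 of 47, the exceptions being those of Edn3 and Ighmbp2, and probes in the other lists were above it without exception.

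At the limits of the rule, the chosen probes closest to the signal of 100 were those of Erf (105 in tumor 4), Nfkbib (107 in tumor 2) and En2 (113 in tumor 4), and the closest outside were Serpina3m (99.6 in tumor 3), Tnfrsf8 probe 2 (99.2 in tumor 3) and Klk1b4 probe 1 (97.5 in tumor 3). The closest to the sense probe were Slc6a11 (140 against 139 in tumor 1), Tie1 (338 against 334 in tumor 1) and Tgfbr1 (4230 against 4090 in tumor 1), and just outside lay Phc1 probe 3 (214 against 218 in tumor 4), Etv4 probe 3 (344 against 354 in tumor 3) and Atf3 (387 against 400 in tumor 1), all as scanner signals. These steps were smaller than the 1.48 times by which spots of identical sequence differed at most. Across the 124 probes, the median log2 ratio to sense in tumors and the mean in normal glands had a Pearson r of 0.76 and a Spearman rho of 0.77 (n = 124 probes that share arrays and, in part, sense probes), and across all 1262 pairs 0.89 and 0.88.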

How the data were processed

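Per the labels and the methods, total RNA was labelled with Cy3 after random priming and hybridized to custom Agilent arrays, 1 array per sample, and the scanner files come from Agilent Feature Extraction. The authors deposited intensities: the processed signal multiplied by 1 factor per array (0.957, 0.822, 1.16 and 1.05 for tumors 1 to 4) and set to 5 where below 5 or not distinct from background. The names of 39878 other spots are masked, and 0 named spots were saturated. The tumor scanner intensities named the probes and chose the set, and entries of the unnamed value table were matched to them by their values in all 4 tumors within 0.52% (2070 entries with 1 candidate, 72 by the gene of neighbouring entries or as the last candidate, 2138 of 2156 tied). All 124 probes and their sense probes were tied. The set, the gene lists and the tests were chosen with earlier results of these data known.

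The 4 tumors were set against the 2 normal glands by two-sided tests of limma (lmFit, eBayes; version 3.58.1, R 4.3.3) on log2 deposited intensities of AFAS probes, of sense probes and of their ratio, with Benjamini-Hochberg adjustment over each whole table and a threshold of 0.05. This step was tested on simulated AFAS data with independent noise and without a floor, so that test does not cover values at the floor. The number of arrays limits the precision. The 404 sense probes were all named probes other than AFAS probes. Of these, 370 carry the sense letter in their name that the pairing with AFAS probes used, and the rest were counted as sense probes too. A sense probe with the same accession faced an AFAS probe when at least 4 stretches of 12 bases were shared with its reverse complement. Genes were named by RefSeq accession (GRCm38.p6, 440 of 445). The files state no genome build, so coordinates were left out. The probes named in the text were the 10 with the widest median ratio to sense in tumors, those of the 5 genes with most probes (ties by name; some of these are not reported here), the 5 with the highest lowest tumor signal, all past the threshold in a fit, those below sense in both normal glands, the 5 highest over a measured sense signal there, and 3 on each side of each limit; Lta, Erf, Cnr1, Itgb2, Pou5f1, Gzmb, Gzmc, Etv4 and the exceptions in normal glands were added after their values were seen. Tables were made with scipy 1.17.1, pandas 2.3.3 and numpy 2.4.6 under Python 3.11.15. Alternatives were other signal limits, scalings, floors, background corrections, tests, the replicate number as a block and each array left out; leaving out non-uniform spots and repeated sequences was chosen after seeing the data.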

Additional observations from a re-analysis of the deposited data

Results flagged for a closer look

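The log2 ratio of AFAS to sense signal was examined in the 4 tumors for each named probe, 39 groups in all. A tumor set apart from the other 3 by a gap of most of the range was found in 1 group. Chance gives about 1 in 20, so 1 of 39 is no more than chance gives. For Vav1 probe 3, tumor 2 had a ratio of 5.03, below 5.56 to 5.65 in the other tumors.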

How the results depend on the processing

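The number of probes chosen was 86 to 154 under the other limits, background corrections and links of sense probes, and 131 to 148 with each tumor left out, all within 1.5 times of 124. The count of probes above the sense probe in both normal glands followed the number of pairs under the settings run for it. It went from 84 of 87 with pairs off the floor to 142 of 148 without tumor 4. The lowest share was 112 of 124, with at least 2 times the sense signal asked for in both normal glands. This count was not run for the other background corrections, the limit on the deposited table or the other link of sense probes. The calls between tumors and normal glands were less stable. Of the 124 AFAS probes, 1 passed; the methods' t-test on linear signals passed 14 unadjusted and 0 after Benjamini-Hochberg, and the counts were 0 to 4 with an array left out, the 4 without tumor 2 (1 higher and 3 lower) and 0 without each other array. Of the 90 sense probes, 9 passed; the counts were 2 after 75th percentile scaling, 5 after median scaling, 3 after quantile normalization, 5 with a floor of 20, 0 by the adjusted methods' t-test and 0 to 14 with an array left out, the 14 without tumor 3. Of the 124 ratios, 9 passed; the counts were 0 with a floor of 20, 4 with trend and robust estimation, 33 and 0 by the methods' t-test before and after adjustment, and 0 to 17 with an array left out. The whole tables moved with these settings too. Of all 404 sense probes, 21 were higher and 2 lower after 75th percentile scaling, 28 and 2 after median scaling and 22 and 2 after quantile normalization. They were 64 and 2 with a floor of 20. Of all 1262 ratios, 48 were higher and 201 lower by the unadjusted methods' t-test, and 23 and 103 without tumor 2. Of all 1734 AFAS probes, 74 and 85 passed by the unadjusted t-test. No single call held under all of these settings, and 1 array less also lowers the number of samples. For other choices the cause was not tested.

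The titles number the samples but do not say whether samples of the same number belong together. The deviations of tumor 1 and normal gland 1, and of tumor 2 and normal gland 2, had correlations of -0.005 and 0.06. The 2 normal glands deviate from their mean by equal and opposite amounts, so these values cannot settle the pairing. With the replicate block, which leaves 2 pairs, the counts were 0 AFAS probes, 0 sense probes and 10 ratios. Over all 1262 pairs of AFAS and sense probe, 26 ratios were higher and 79 lower with this block. Of the 124 sense signals, 36 were at the floor in normal gland 2 and 18 in normal gland 1, where a ratio has no firm size.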
